A study of Homo sapiens with 6 samples.

Results

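The genes described here are 10 feedback inhibitors of the ERK pathway, namely the phosphatase genes DUSP1, DUSP4, DUSP5 and DUSP6, the Sprouty genes SPRY1, SPRY2 and SPRY4, the SPRED genes SPRED1 and SPRED2, and PHLDA1. They were chosen by gene symbol in the probe annotation, and all 10 were found among the 18417 genes measured, each on 1 probe of its own. Expression was measured in U373MG, an established human glioblastoma cell line, on 6 Human Gene 1.0 ST arrays. Of these, 3 arrays held cells exposed for 24 hours to 1 compound each, which were ET-770 (ecteinascidin-770) at 4.83 nM, ET-770-DR (ET-770 carrying a pyridinecarbonyl group) at 1.70 nM, and RM (renieramycin M) at 3.10 nM. The other 3 arrays held cells given the vehicle dimethyl sulfoxide (DMSO), 1 for each compound and at the equivalent concentration, in 3 independent experiments. Each dose was the 50% inhibitory concentration of that compound, found in a longer viability test, so that doses differed between compounds. All compounds are 1,2,3,4-tetrahydroisoquinoline alkaloids.

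ERK is the last kinase of a cascade that runs from growth factor receptors through RAS, RAF and MEK, and it enters the nucleus and switches on transcription of genes for growth. Among its targets are its own inhibitors. DUSP proteins take the activating phosphates off ERK and related kinases, Sprouty and SPRED proteins act upstream at the level of RAS and RAF, and PHLDA1 is a pleckstrin homology-like protein whose transcript is widely used as a readout of ERK activity. In glioblastoma the cascade is often driven by EGFR, and transcripts of the inhibitors are then read as a trace of the signal. Many of these transcripts are short-lived.

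The feedback inhibitors did not move as a block. DUSP1, DUSP4, DUSP5 and SPRY4 rose, SPRY2, SPRED1 and PHLDA1 fell, and DUSP6, SPRY1 and SPRED2 did not pass the test. Changes were tested with limma on log2 signals, blocked by experiment (n = 3 pairs of compound and DMSO array), with Benjamini-Hochberg adjustment over 18417 genes and a threshold of 0.05. The compounds served as replicates of each other here, so that the 3 pairs also differ in compound and dose. The p-values rest on standard errors that limma moderates with the variance of all genes. They therefore do not measure the SD of the 3 pairs printed beside them. For DUSP5 that SD was 0.05 and the moderated standard error 0.12, and for SPRY4 they were 0.44 and 0.17. Thus 4 of 10 members rose, beside 13.1% of all genes, and 3 of 10 fell, beside 11.2% of all genes. The same 4 were higher than their own DMSO array with all 3 compounds, as were 29.6% of all genes, and the same 3 were lower with all 3 compounds, as were 20.6% of all genes. The median of the mean log2 changes was -0.07 over the members and 0.03 over all genes, and with RM alone the median of all genes was 0.12. Without the experiment as a block, none of the 7 calls held, with adjusted p of 0.44 for DUSP1, 0.68 for SPRY4 and 0.89 for DUSP5, and of 1.0 for the other 4.

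The promoter sequences of 4 members are shown because these genes moved in opposite directions in the same cells. Each is the 250 bases before the transcription start in RefSeq (GRCh38.p14), written 5′ to 3′ on the strand of the gene, with the CRE motif (TGACGTCA) and the GC box (GGGCGG, or CCGCCC on the other strand) in capitals. DUSP1 (chr5:172771196-172771445, minus strand) and SPRY4 (chr5:142324248-142324497, minus strand) rose, whereas SPRED1 (chr15:38252586-38252835, plus strand) and PHLDA1 (chr12:76031777-76032026, minus strand) fell.
DUSP1: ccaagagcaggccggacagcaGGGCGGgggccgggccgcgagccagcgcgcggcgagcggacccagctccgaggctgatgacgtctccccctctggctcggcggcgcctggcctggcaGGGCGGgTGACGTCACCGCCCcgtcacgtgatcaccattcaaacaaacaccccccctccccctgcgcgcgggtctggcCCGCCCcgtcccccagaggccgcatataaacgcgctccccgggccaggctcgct
SPRY4: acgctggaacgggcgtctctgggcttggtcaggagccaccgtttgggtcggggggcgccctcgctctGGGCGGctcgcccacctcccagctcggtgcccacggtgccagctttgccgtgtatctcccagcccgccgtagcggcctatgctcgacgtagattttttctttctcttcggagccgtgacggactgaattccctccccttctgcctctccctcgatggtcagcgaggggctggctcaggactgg
SPRED1: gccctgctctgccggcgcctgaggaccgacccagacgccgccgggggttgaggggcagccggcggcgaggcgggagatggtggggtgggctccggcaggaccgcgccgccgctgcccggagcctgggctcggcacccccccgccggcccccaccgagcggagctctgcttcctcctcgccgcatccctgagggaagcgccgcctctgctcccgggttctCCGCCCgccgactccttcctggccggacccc
PHLDA1: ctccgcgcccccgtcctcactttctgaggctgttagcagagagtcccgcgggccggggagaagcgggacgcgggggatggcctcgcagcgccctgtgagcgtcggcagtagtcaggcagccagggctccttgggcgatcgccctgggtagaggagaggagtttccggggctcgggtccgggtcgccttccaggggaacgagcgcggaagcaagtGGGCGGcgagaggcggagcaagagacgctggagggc

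In these windows DUSP1 held the CRE, an element bound by CREB-type factors, which began 125 bases before the start and was followed directly by a GC box. A CRE was found in 1.65% of the 35116 RefSeq promoters searched in the same way on both strands. DUSP1 held 4 GC boxes, and SPRY4, SPRED1 and PHLDA1 held 1 each, while 42.6% of all promoters held at least 1. The AP-1 motif (TGACTCA) was present in 4.2% of promoters and the CArG box, bound by serum response factor, in 1.16%. Neither was found in the 12 windows of the 8 members with a listed promoter. DUSP4 and DUSP5, which rose, had none listed, so that of the risen members only DUSP1 and SPRY4 were searched. The ETS core GGAA, a motif so short that 92.7% of promoters held it, was found in every listed member other than DUSP1. DUSP1 and SPRED1 had 30 CpG dinucleotides each in the 250 bases, PHLDA1 had 26 and SPRY4 had 22, where the median promoter had 11. SPRY2, which fell, had windows of 5, 13 and 23 CpG at its 3 listed starts.

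DUSP1 encodes a nuclear phosphatase that removes phosphates from ERK, p38 and JNK and is induced by growth factors and by stress. Its log2 signal was 10.28 with DMSO and 11.26 with ET-770 in the first experiment, 9.45 with DMSO and 10.55 with ET-770-DR in the second, and 9.68 with DMSO and 10.53 with RM in the third. All 3 compound arrays were higher than all 3 DMSO arrays, a separation without overlap in either direction that 8.96% of all genes showed. The change was 1.97-fold, 2.16-fold and 1.80-fold in this order, and the mean log2 change was 0.98 ± 0.13 (SD, n = 3 pairs; adjusted p = 0.00045). With ET-770, 2.13% of all genes had a higher log2 change than DUSP1, with ET-770-DR 2.71% and with RM 1.57%, which places it near the top of the response to every compound.

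DUSP5 encodes a nuclear phosphatase that acts on ERK alone among the MAP kinases. Its log2 signal went from 9.35 with DMSO to 10.04 with ET-770, from 8.42 to 9.12 with ET-770-DR, and from 8.57 to 9.36 with RM. The DMSO array of the ET-770 experiment was higher than the ET-770-DR array, so that the groups overlapped, yet the change was nearly equal in the 3 experiments. The fold changes were 1.61, 1.63 and 1.72, and the mean log2 change was 0.73 ± 0.05 (SD, n = 3 pairs; adjusted p = 0.0019), the smallest SD between pairs among the 10 members.

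DUSP4, another nuclear phosphatase of ERK and its relatives, went on the log2 scale from 7.58 with DMSO to 8.33 with ET-770, from 6.76 to 7.55 with ET-770-DR, and from 6.34 to 6.59 with RM. It was higher in each experiment, and the groups overlapped because the DMSO arrays differed by more than the change. The fold changes were 1.68 and 1.72 with ET-770 and ET-770-DR and 1.19 with RM, where 33.4% of all genes had a higher change. The mean log2 change was 0.59 ± 0.30 (SD, n = 3 pairs; adjusted p = 0.014). The call was lost without the ET-770 experiment (adjusted p = 0.14) and without the ET-770-DR experiment (adjusted p = 0.059).

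DUSP6 encodes the cytoplasmic phosphatase most selective for ERK, and its transcript is among the most used readouts of the pathway. Its log2 signal went from 9.14 with DMSO to 8.53 with ET-770, from 7.73 to 7.88 with ET-770-DR, and from 8.80 to 8.74 with RM. It was thus lower with ET-770, slightly higher with ET-770-DR and nearly level with RM. The fold changes were 0.656, 1.11 and 0.963, and the mean log2 change was -0.17 ± 0.39 (SD, n = 3 pairs; adjusted p = 0.56). The log2 change of DUSP1 exceeded that of DUSP6 by 1.59, 0.96 and 0.90 in the ET-770, ET-770-DR and RM experiments.

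**Figure D1:**
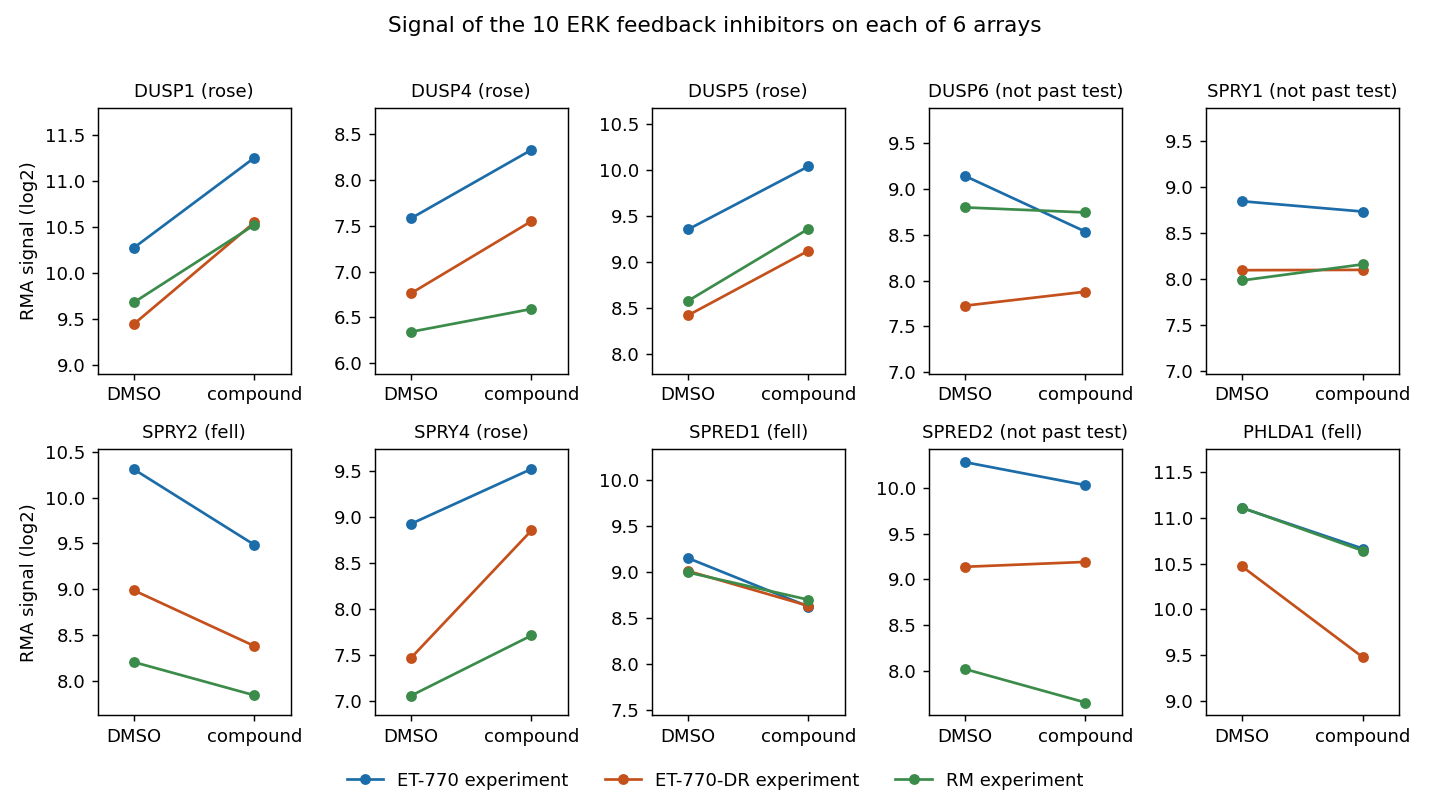
RMA signal on a log2 scale of each of the 10 feedback inhibitors in DMSO-treated and compound-treated cells, with a point per array and a line from each DMSO array to its compound array. All panels span the same number of log2 units around their own centre. DUSP1 and SPRED1 are the members whose compound arrays lie wholly on one side of the DMSO arrays, and for SPRED2 the 3 experiments lie farther apart than the ends of any line.

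Sprouty proteins are induced by ERK signaling and dampen the steps between the receptor and RAF. The 3 members of this family took 3 courses. SPRY4 went on the log2 scale from 8.93 with DMSO to 9.53 with ET-770, from 7.47 to 8.86 with ET-770-DR, and from 7.06 to 7.71 with RM. It was higher in every experiment, by 1.51-fold, 2.62-fold and 1.58-fold, and the rise with ET-770-DR was exceeded by 0.999% of all genes. The mean log2 change was 0.88 ± 0.44 (SD, n = 3 pairs; adjusted p = 0.0041), and the groups overlapped because the DMSO arrays ranged over 1.87 log2 units.

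SPRY2 went the other way. Its log2 signal went from 10.31 with DMSO to 9.48 with ET-770, from 8.99 to 8.38 with ET-770-DR, and from 8.21 to 7.84 with RM. It was lower in every experiment, at 0.565-fold, 0.657-fold and 0.778-fold. It fell by 0.60 on the log2 scale with an SD of 0.23 (n = 3 pairs; adjusted p = 0.0097). Without the ET-770 experiment the call was lost (adjusted p = 0.18). The log2 change of SPRY4 exceeded that of SPRY2 by 1.42, 2.00 and 1.02 in the ET-770, ET-770-DR and RM experiments. SPRY1 stood between them, at 0.925-fold, 1.00-fold and 1.13-fold, with log2 signals of 8.85 and 8.74, 8.10 and 8.10, and 7.98 and 8.16 in DMSO and compound of the 3 experiments. Its mean log2 change was 0.02 ± 0.14 (SD, n = 3 pairs; adjusted p = 0.95).

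SPRED proteins carry the Sprouty domain on a membrane-bound scaffold and bring neurofibromin, the product of NF1, to RAS. SPRED1 went on the log2 scale from 9.15 with DMSO to 8.62 with ET-770, from 9.01 to 8.63 with ET-770-DR, and from 9.00 to 8.70 with RM. All compound arrays were lower than all DMSO arrays, which lay within 0.16 log2 units of each other. The fold changes were 0.693, 0.768 and 0.813, and SPRED1 fell by 0.40 on the log2 scale with an SD of 0.12 (n = 3 pairs; adjusted p = 0.040). The call lay near the threshold. It was lost without the ET-770 experiment (adjusted p = 0.46), without the ET-770-DR experiment (adjusted p = 0.097) and when each array was centred on its median (adjusted p = 0.052).

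SPRED2 went from 10.28 with DMSO to 10.03 with ET-770, from 9.14 to 9.19 with ET-770-DR, and from 8.02 to 7.66 with RM. It was lower with ET-770 and RM and about level with ET-770-DR, at 0.841-fold, 1.04-fold and 0.777-fold, and its mean log2 change was -0.19 ± 0.22 (SD, n = 3 pairs; adjusted p = 0.40). The difference between experiments was far larger than these changes, since the DMSO arrays of SPRED2 ranged over 2.26 log2 units as deposited and over 1.78 after quantile normalization.

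PHLDA1 went on the log2 scale from 11.11 with DMSO to 10.66 with ET-770, from 10.47 to 9.48 with ET-770-DR, and from 11.11 to 10.64 with RM. It was lower in every experiment, at 0.736-fold, 0.505-fold and 0.723-fold, and the RM and ET-770 arrays still lay above the DMSO array of the ET-770-DR experiment. PHLDA1 fell by 0.63 on the log2 scale with an SD of 0.31 (n = 3 pairs; adjusted p = 0.011). Without the ET-770-DR experiment, in which it moved most, the adjusted p was 0.061. PHLDA2, a smaller relative of PHLDA1 from an imprinted gene cluster, rose by a mean log2 change of 0.66 (adjusted p = 0.0041), and PHLDA3, a p53 target that restrains AKT, stood at -0.065 (adjusted p = 0.83).

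**Figure D2:**
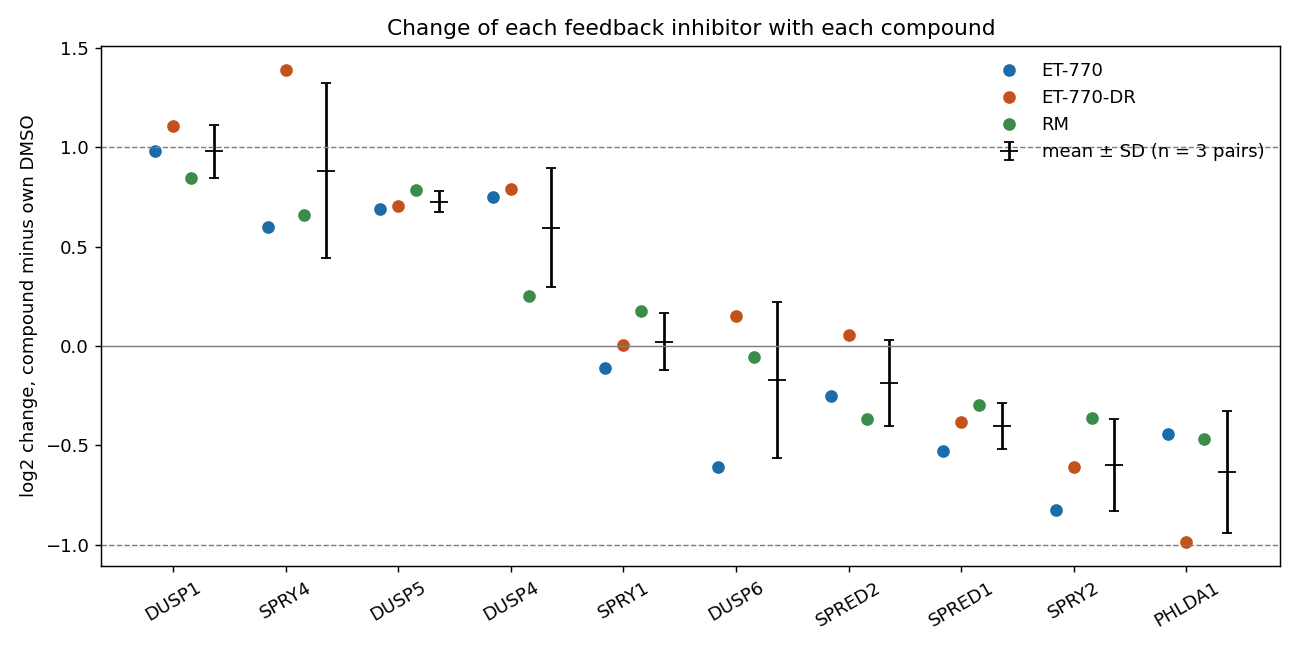
Log2 change of each feedback inhibitor from the DMSO array of its own experiment, with 1 point per compound and the mean with its SD over the 3 pairs in black; dashed lines mark 2-fold in either direction. DUSP1 and SPRY4 pass 2-fold with ET-770-DR, PHLDA1 stays just inside 0.5-fold with it, and DUSP6, SPRY1 and SPRED2 have points on both sides of 0.

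Set side by side, the compounds gave these members changes of moderate size. No member was past 3-fold in either direction with any compound, where the ET-770, ET-770-DR and RM experiments had 2.38%, 2.63% and 1.4% of all genes. Over 2-fold were 0 of 10 members with ET-770 (2.01% of all genes), DUSP1 and SPRY4 with ET-770-DR (3.84% of all genes), and 0 of 10 with RM (0.668% of all genes). Under 0.5-fold were 0 of 10 members with each compound, where 4.68%, 4.94% and 4.28% of all genes were so with ET-770, ET-770-DR and RM. PHLDA1 with ET-770-DR (0.505-fold) lay just above that limit, and DUSP1 with ET-770 (1.97-fold) just below the upper one. ET-770 and its pyridinecarbonyl derivative differ in structure at that group, and their values for SPRY4 (1.51-fold and 2.62-fold), DUSP6 (0.656-fold and 1.11-fold) and PHLDA1 (0.736-fold and 0.505-fold) stood farthest apart among the members. These are single arrays at different doses in different experiments, so no difference between compounds was tested.

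Differences between the DMSO arrays were large beside the changes of these members. The median signal over all genes was itself 7.97, 7.28 and 7.40 on the DMSO arrays of the ET-770, ET-770-DR and RM experiments. For 8 of 10 members the range over the 3 DMSO arrays exceeded the size of the mean change, and DUSP1 and SPRED1 were the exceptions. After quantile normalization across the 6 arrays it did so for 7 of 10, and the exceptions were DUSP1, DUSP5 and PHLDA1. The share of all genes with such a range was not counted, so that it cannot be called particular to the members. After quantile normalization the DMSO arrays of DUSP1 stood at 9.93, 9.80 and 9.78 and its compound arrays at 10.87, 10.73 and 10.62. The DMSO arrays of SPRY2 stood at 9.97, 9.37 and 8.33 and those of SPRY4 at 8.57, 7.74 and 7.26, so that both were lower in the RM experiment than in the ET-770 experiment before any compound was given. SPRED1, whose DMSO arrays lay close together as deposited, stood at 8.79, 9.39 and 9.10 after the normalization, and its groups then overlapped.

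Over the 6 arrays, the genes whose log2 signal was most like that of SPRED2 were RANBP10, EXD1, HERC6, CHKA and KAT6A, with Pearson correlations of 0.997 to 0.998. Those most like DUSP6 were ZNF333, H1-1, OR5D14, N4BP2 and DZANK1, with correlations of 0.975 to 0.984. These are descriptions over 6 arrays that share their experiments in pairs, on signals as deposited. OR5D14 (3.59 to 4.31), H1-1 (4.84 to 5.70) and EXD1 (3.50 to 5.37) were dim, so that their signal may hold background. The part of differences in level between the arrays in this likeness was not tested. None of the 10 genes passed the test of the shared response, and their mean log2 changes lay between -0.39 and -0.05.

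**Figure D3:**
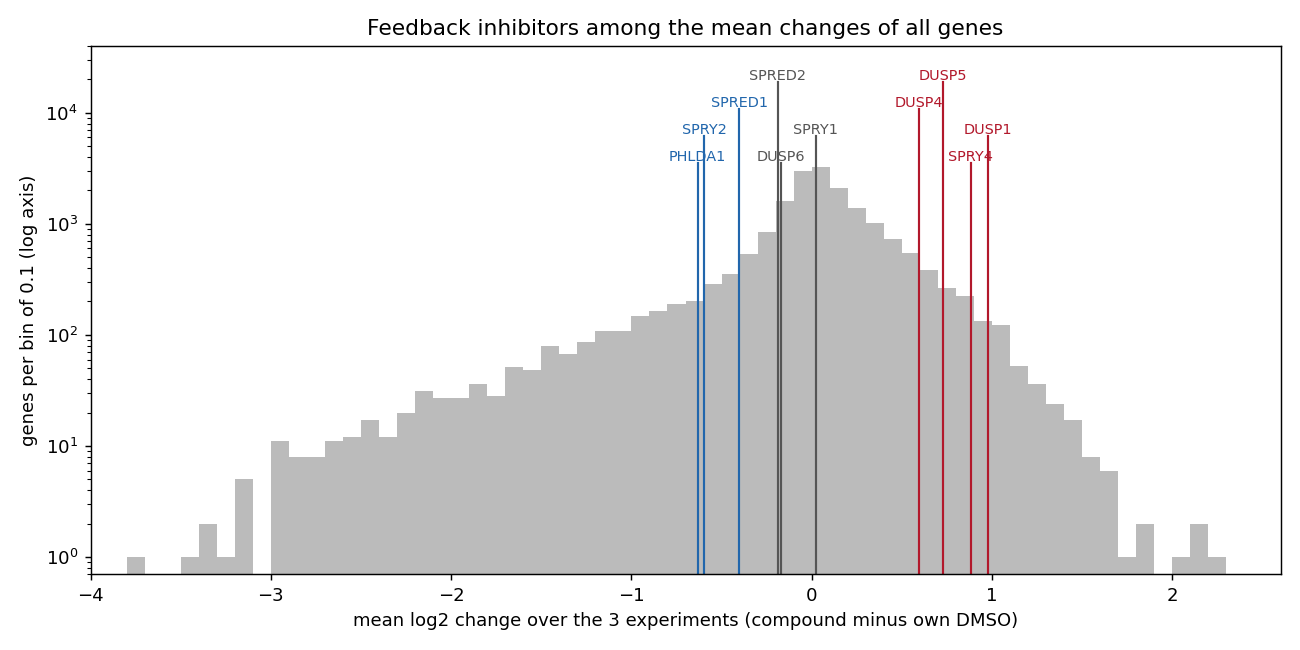
Number of genes in each bin of mean log2 change over the 3 experiments, on a log axis, for all 18417 genes, with vertical lines at the feedback inhibitors that rose (red), fell (blue) or did not pass the test (grey). DUSP1 (0.98) and SPRY4 (0.88) stand on the upper flank, while PHLDA1 (-0.63) and SPRY2 (-0.60) are well inside the long lower tail.

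Of 6 other MAP kinase phosphatases measured beside the members, 2 rose and 0 fell, where 13.1% of all genes rose and 11.2% fell. DUSP8, a phosphatase selective for JNK and p38, rose by a mean log2 change of 1.10 (moderated standard error 0.17, adjusted p = 0.0013), and DUSP16, of the same class, by 0.41 (moderated standard error 0.13, adjusted p = 0.047). The DUSP16 call was lost without the ET-770 experiment (adjusted p = 0.34) and without the ET-770-DR experiment (adjusted p = 0.21). By their usual classes, 3 of the 4 nuclear and inducible phosphatases rose (DUSP1, DUSP4 and DUSP5, but not DUSP2, at 0.11), 0 of the 3 cytoplasmic and ERK-selective phosphatases did (DUSP6 at -0.17, DUSP7 at 0.10 and DUSP9 at 0.13), and 2 of the 3 selective for JNK and p38 did (DUSP10 was at 0.08). None of these 10 phosphatases fell, and none was lower at an unadjusted p under 0.05. Of 8 atypical dual-specificity phosphatases, which lack the docking domain for MAP kinases, DUSP11 rose by 0.50 (adjusted p = 0.016) and DUSP19 fell by 0.74 (adjusted p = 0.0033).

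In the cascade itself, the genes that passed the test all fell. Of 15 measured genes from the adaptor GRB2 to the RSK kinases, 6 fell and 0 rose (limma), beside 11.2% and 13.1% of all genes. The median mean log2 change was -0.26 against 0.03 over all genes. RPS6KA1, of the RSK kinases, was the 1 gene higher at an unadjusted p under 0.05 (0.39, adjusted p = 0.052). Its rise passed the test with a trend in eBayes (adjusted p = 0.033), median centring (0.038) and the low-signal filter (0.037). It also passed without the RM experiment (adjusted p = 0.015). KSR1, the scaffold that holds RAF, MEK and ERK together, fell by 1.04 (adjusted p = 0.012), and its log2 changes were -1.46 for ET-770, -1.56 for the derivative and -0.12 for RM. The others that fell were SOS1 and SOS2, the exchange factors that load RAS, and MAP2K1, which encodes MEK1. PTPN11, which encodes the phosphatase SHP2, and RPS6KA2, a kinase downstream of ERK, fell too. Without the ET-770 experiment the calls of SOS2 (adjusted p = 0.082), MAP2K1 (adjusted p = 0.13) and PTPN11 were lost. The PTPN11 call was also lost without the ET-770-DR experiment (adjusted p = 0.074). MAPK3, which encodes ERK1, stood at 0.03 (adjusted p = 0.92).

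Among 14 other genes that ERK signaling is known to induce, 4 rose and 1 fell, beside 13.1% and 11.2% of all genes. The median was 0.15. EGR1, an immediate early zinc finger factor, rose by a mean log2 change of 0.81 (adjusted p = 0.0052), FOS, a subunit of AP-1, by 0.52 (adjusted p = 0.013) and IER2, another immediate early gene, by 0.81 (adjusted p = 0.0012). MYC had the highest mean, 0.91 (adjusted p = 0.034), yet it was at 1.56 and 1.27 with ET-770 and ET-770-DR and at -0.11 with RM. The MYC call was lost after quantile normalization (adjusted p = 0.062), which left 3 of these genes risen, and without the ET-770 experiment (adjusted p = 0.078) or the ET-770-DR experiment (adjusted p = 0.083). FOS was lost without either of these experiments too (adjusted p = 0.12 and 0.065). ETV1, a PEA3-type ETS factor, fell by 0.80 (adjusted p = 0.0052). Its relatives ETV4 (0.30, adjusted p = 0.17) and ETV5 (0.16, adjusted p = 0.52), which with DUSP6 are the usual readouts of ERK output, did not pass the test, and the log2 changes of ETV5 were -0.05 for ET-770, 0.50 for the derivative and 0.04 for RM.

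Upstream, 5 of 13 measured growth factor ligands fell and 1 rose (limma). Of 13 receptors, 4 fell and 0 rose, and none was higher at an unadjusted p under 0.05. Beside these and the counts below, 11.2% of all genes fell and 13.1% rose. HBEGF, a shed ligand of EGFR, rose by 2.19 (adjusted p = 8.3e-06), while TGFA, another ligand of EGFR, fell by 2.02 (adjusted p = 2.2e-05). EGFR fell by 1.10 (adjusted p = 0.00031), IGF1R, the insulin-like growth factor receptor, by 1.21 (adjusted p = 0.00017), and PDGFRA and MET were the other receptors that fell. Of 9 other negative regulators of RAS and receptor signaling, 4 fell and 1 rose. RASAL2, a GTPase-activating protein for RAS, fell by 2.14 (adjusted p = 1.2e-05), LRIG1, which promotes breakdown of EGFR, by 1.53 (adjusted p = 4.5e-05), and NF1, the partner of SPRED1, by 0.87 (adjusted p = 0.0037). PEA15, which keeps ERK in the cytoplasm, rose by 0.46 (adjusted p = 0.026). In the stress branches 3 of 7 kinases fell and 1 rose, among them MAP2K6, which activates p38 (fell by 1.24), and MAP2K3, which does so too (rose by 0.50). Over all these lists and the cell type markers 39 genes beside the members were called, of which 14 lost the call without the ET-770 experiment, 8 without the ET-770-DR experiment and 1 without the RM experiment. Without the experiment as a block 34 of the 39 lost it, and HBEGF, TGFA, NRG1, RASAL2 and LRIG1 kept it.

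**Figure D4:**
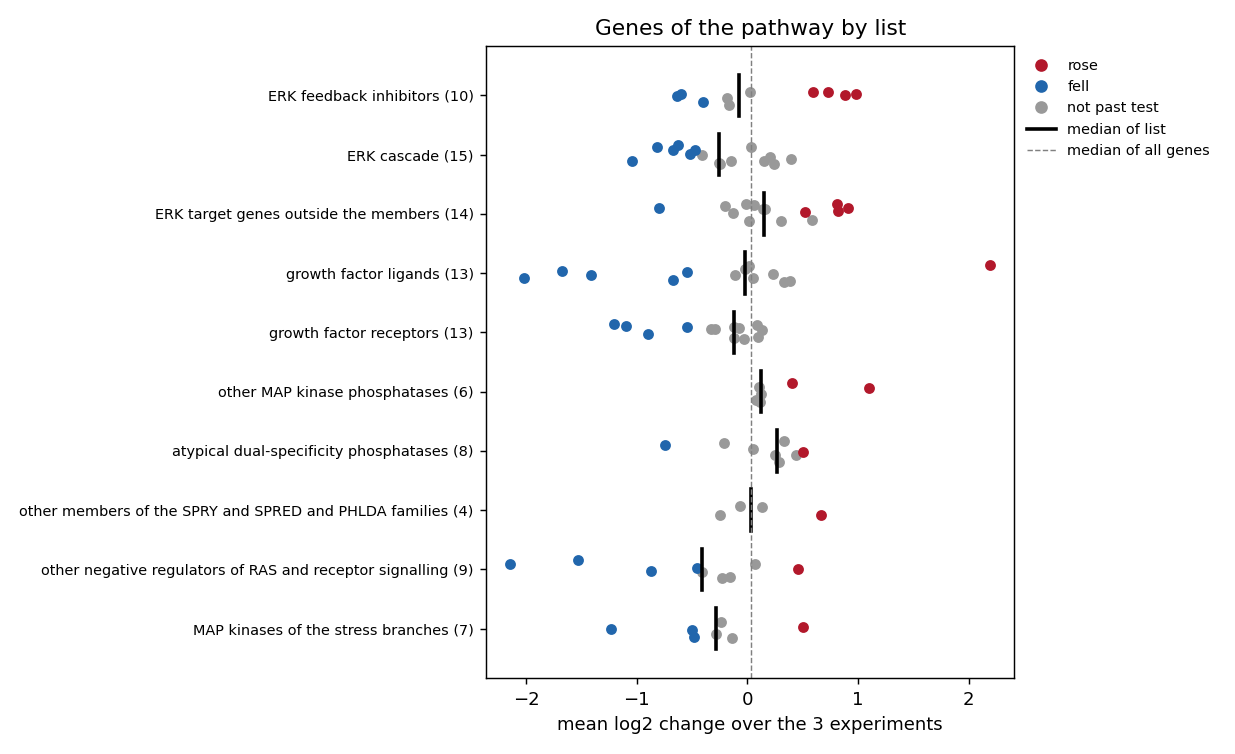
Mean log2 change over the 3 experiments of the genes in 10 lists, with the number measured in brackets; each point is a gene, red where it rose, blue where it fell and grey where it did not pass the test, the black bar is the median of the list and the dashed line the median of all genes (0.03). The feedback inhibitors split to both sides, with 4 risen and 3 fallen, whereas the cascade has 6 fallen and 0 risen.

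The markers of the cell line were measured as well. Among glial or glioma markers, the log2 signal on the 6 arrays was 12.7 to 13.6 for VIM, 12.2 to 13.4 for CD44 and 10.5 to 12.4 for SOX2. AQP4 (4.07 to 4.88) was dim. The leukocyte markers ranged from PTPRC (3.41 to 4.35) and CD3E (4.70 to 6.10) to CD79A (5.86 to 6.87) and CD14 (6.23 to 7.26). The neuronal markers RBFOX3, SYP and SNAP25 lay at 5.32 to 6.48, 5.85 to 6.99 and 6.02 to 7.45. GFAP, the astrocyte filament, lay between 6.66 and 7.72, which overlapped the ranges of CD14, CD79A, SYP and SNAP25. Of the 7 glial markers, 3 fell (S100B, CD44 and SOX2), beside 11.2% of all genes. Of 4 epithelial markers 1 rose (KRT18, a keratin, by 0.91), beside 13.1% of all genes. The summed linear signal of the glial markers was 20222 to 28915 on the DMSO arrays and 15176 to 24536 on the compound arrays. That of the epithelial markers, with EPCAM at a log2 signal under 4.89, was 510 to 721 and 781 to 1204. The brightest genes weigh most in such sums. Among epithelial markers this was KRT18 (8.49 to 10.0), while EPCAM, CDH1 and KRT19 had mean log2 changes of 0.16, 0.01 and -0.06 and did not pass the test. Among glial markers VIM and CD44 were brightest, and VIM (-0.20, adjusted p = 0.30) did not pass. The part of the markers in the changes of the feedback inhibitors was not tested. All 6 arrays held 1 cell line, U373MG. In bulk RNA, fewer cells that express a marker and less of its RNA per cell cannot be told apart.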

How the data were processed

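The authors deposited log2 signals of 33297 probes, summarized by the robust multiarray average (RMA) with the Expression Console software of Affymetrix. Whether the 6 arrays were normalized together is not given in the sources used here. The array medians over all probes ranged from 6.63 to 7.30. Signals of the 19460 probes that the platform annotation gives a single symbol were averaged per gene, which gave 18417 genes, and probes with several symbols (1754) or none (12083) were not used. The labels name the DMSO control of each compound. After removal of the group means, each compound array correlated with its own DMSO array at 0.69 to 0.83 and with the others at 0.24 at most.

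Changes are log2 compound minus log2 DMSO of the same experiment. For the shared response, limma 3.58.1 (R 4.3.3) fitted exposure with a block for the experiment, using eBayes without trend and Benjamini-Hochberg adjustment over all genes, and standard errors are moderated by limma. The fit was tested on simulated data. Single compounds, with 1 array per arm, have no test, and the number of arrays limits the precision. Other steps used Python 3.11.15, numpy 2.4.6, pandas 2.3.3 and matplotlib 3.10.9.

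The alternatives were no block for the experiment, quantile normalization, median centring, a trend in eBayes, a filter on genes under the 25th percentile of mean signal, the brightest probe per gene, each experiment left out in turn, and the mean of the 3 DMSO arrays as control. The members and the lists were chosen with earlier results of these data known. All members are named, and of each list the largest rise and the largest fall that passed the test, a few fixed pathway genes and the 5 genes most like DUSP6 and SPRED2. SOS1, SOS2, MAP2K1, PTPN11, RPS6KA1, RPS6KA2, IER2, NRG1, PDGFRA, MET, LRIG1, NF1, PHLDA3 and the other DUSP genes were named after their values were seen.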

Additional observations from a re-analysis of the deposited data

Results flagged for a closer look

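On the signals as deposited, DUSP6, SPRY1 and SPRED2 were lower than their DMSO array with one compound and higher with another. The log2 changes ranged over 0.76 for DUSP6, from -0.61 with ET-770 to 0.15 with ET-770-DR, over 0.42 for SPRED2, from -0.36 with RM to 0.05 with ET-770-DR, and over 0.29 for SPRY1, from -0.11 with ET-770 to 0.17 with RM. After quantile normalization SPRED2 went from 9.51 with DMSO to 9.40 with ET-770-DR and was lower with all 3 compounds. DUSP6 and SPRY1 still had changes of both signs. The SPRY1 change with RM lay near the median of all genes with RM, 0.12. With 1 array per arm, these differences between compounds were not tested.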

How the results depend on the processing

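The 4 members that rose and the 3 that fell kept their direction under every alternative of the limma fit, and kept their calls under quantile normalization, the trend, the low-signal filter and the brightest probe. Without a replicate block for the experiment (limma), 0 members rose and 0 fell (1 was higher and 0 lower at an unadjusted p under 0.05), and in the cascade 0 fell and among the other ERK targets 0 rose and 0 fell. With single experiments left out, the number of members that fell ranged from 1 to 3 and that of members that rose from 3 to 4. Median centring left 2 members fallen, without SPRED1. When the 3 DMSO arrays were averaged into 1 control, 4 members were over 2-fold for ET-770 and 1 for ET-770-DR, while 1 was under 0.5-fold for ET-770-DR and 2 for RM. Against that control, SPRY2 was higher with ET-770 (log2 change 0.32), and DUSP4 (-0.30) and SPRY4 (-0.11) were lower with RM, each opposite to its change from its own DMSO array. With quantile normalization 1 was over 2-fold and 1 under 0.5-fold with ET-770-DR, and with median centring 1 was over 2-fold with ET-770. The mean log2 change of DUSP6, which did not pass the test, ranged from -0.33 to 0.049 with single experiments left out, and that of SPRY1 from -0.054 to 0.089, and SPRY1 was at -0.040 after quantile normalization. The cause of these shifts was not tested. Detection over background was not called, so that the signal of dim genes such as AQP4 may hold background.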
